A study of Mus musculus with 4 samples.

Results

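The genes described here are 35 markers of microglia, the resident macrophages of the brain, in mouse cortex taken 24 h into a permanent middle cerebral artery occlusion (MCAO), with and without *P4htm*. Members were taken from a fixed list of gene symbols, and the brightest on average of the probe sets that name only that gene stood for it, which gave a value for 35 of 35 members out of 18194 genes on the array. The conditions were *P4htm*-/- ipsilateral, *P4htm*-/- contralateral, WT ipsilateral and WT contralateral cortex of C57BL/6J mice of 3 months, where the ipsilateral side is the one whose artery was occluded on the left and the contralateral side is the other cortex of the same mice. *P4htm*-/- mice lack transmembrane prolyl 4-hydroxylase, an oxygen-dependent enzyme of the endoplasmic reticulum membrane, and all mice of both genotypes had the occlusion, so no array shows unoperated cortex. Whole cortex was used, and the RNA of 4 mice was pooled for 1 Affymetrix mouse expression array per condition.

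With 1 array per condition there is no replicate error, and neither a test nor a standard error can be given. The number of arrays limits the precision. Values are on a log2 scale as deposited, and a difference of 1 is a 2-fold difference. A gene is called higher or lower when its values differ by at least 1.5-fold, which is 0.585 on this scale, and at least 1 of the compared arrays lies above background. The background limit was 4.80, below which 95% of 80 probe sets fall that detect receptors of the olfactory, vomeronasal and bitter taste families. The same receptor probe sets differed between arrays with an SD of 0.18 to 0.21 in the 4 simple comparisons and of 0.29 in the difference between the ischemia differences. This spread was taken as technical and does not measure variation between mice. It comes from probe sets near background, and the spread of brighter probe sets was not determined. *P4htm* itself read 8.23 in *P4htm*-/- ipsilateral and 8.27 in *P4htm*-/- contralateral cortex, against 10.02 in WT ipsilateral and 10.03 in WT contralateral cortex, which follows the labels, although it was not determined whether the probe sets lie in the deleted part. Between 58.9% and 59.5% of the probe sets of an array lay above background, and array medians were 5.53 to 5.55.

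Microglia settle in the brain during embryonic life and renew themselves there, and their survival depends on the receptor *Csf1r*. At rest they carry a set of surface proteins, among them *P2ry12* and *Tmem119*, that blood leukocytes mostly lack. After injury they retract their processes, take up debris and raise phagocytic and lysosomal genes, many of which they share with monocytes, macrophages and neutrophils that enter from the blood. The factor PU.1, encoded by *Spi1*, binds regulatory DNA of many genes of this lineage at a purine-rich core named the PU box.

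The promoters of 4 members with unlike ischemia differences are shown first, so that their sequence can be read beside their values. *Fcgr1* and *Cd53* were higher in ipsilateral cortex of both genotypes and hold a PU box, *Ly86* had the largest ischemia difference of all members and holds none, and *P2ry12* had the lowest and holds none. Each is the stretch of 250 bases before the RefSeq start of the gene in build GRCm38.p6, read in the direction of the gene, with the PU box (GAGGAA, or TTCCTC where it lies on the other strand) in capitals. The stretches are chr3:96293970-96294219 on the minus strand for *Fcgr1*, chr3:106790150-106790399 on the minus strand for *Cd53*, chr13:37345095-37345344 on the plus strand for *Ly86* and chr3:59262986-59263235 on the minus strand for *P2ry12*.
Fcgr1: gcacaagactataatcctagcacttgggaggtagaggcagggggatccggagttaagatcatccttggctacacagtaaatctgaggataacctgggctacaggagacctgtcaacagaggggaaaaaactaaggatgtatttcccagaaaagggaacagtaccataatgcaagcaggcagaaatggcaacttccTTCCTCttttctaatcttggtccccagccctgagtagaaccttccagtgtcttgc
Cd53: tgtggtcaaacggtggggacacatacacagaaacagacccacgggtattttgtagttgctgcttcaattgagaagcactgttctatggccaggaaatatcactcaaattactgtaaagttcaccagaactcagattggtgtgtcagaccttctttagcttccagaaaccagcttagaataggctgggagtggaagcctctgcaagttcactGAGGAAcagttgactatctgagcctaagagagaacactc
Ly86: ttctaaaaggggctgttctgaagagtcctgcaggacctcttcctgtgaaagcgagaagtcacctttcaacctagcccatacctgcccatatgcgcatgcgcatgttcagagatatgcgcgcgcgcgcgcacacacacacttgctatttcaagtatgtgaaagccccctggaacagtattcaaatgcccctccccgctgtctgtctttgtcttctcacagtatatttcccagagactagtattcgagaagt
P2ry12: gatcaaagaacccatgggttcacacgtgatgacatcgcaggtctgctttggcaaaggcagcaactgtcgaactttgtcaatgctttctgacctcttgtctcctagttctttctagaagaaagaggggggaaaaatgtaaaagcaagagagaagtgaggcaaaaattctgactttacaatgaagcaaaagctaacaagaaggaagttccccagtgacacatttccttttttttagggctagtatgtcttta
The PU box of *Fcgr1* begins 55 bases before the start and that of *Cd53* begins 39 bases before it. Searched on both strands, GAGGAA was found in 12 of 33 windows of 27 members, or 36.4%, belonging to 11 genes, against 23.3% of all 32851 windows of the same length. The 11 genes are *Aif1*, *Cd53*, *Cd68*, *Ctss*, *Fcgr1*, *Fcgr3*, *Itgam*, *Laptm5*, *P2ry13*, *Ptprc* and *Trem2*. They include members with a large ischemia difference and members with nearly none. A composite element for PU.1 with an interferon regulatory factor, GGAANNGAAA, was found in 0 of 33 windows and in 2.30% of all windows. The core of the lysosomal CLEAR element, GTCACGTG, was found in 2 member windows, those of the lysosomal proteases *Ctsd* and *Lgmn*, and in 1.85% of all windows. A match is a string of letters in a window and does not show that a factor is bound there. The other 8 members (*Tyrobp*, *Csf1r*, *Gpr34*, *Spi1*, *Cd86*, *Cd52*, *Tmem119* and *Ctsb*) were not searched.

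Of the 35 members, 33 lay above background on all 4 arrays. *Itgax* lay above it on none, and *Cybb* only on the WT ipsilateral array, as the plot of the members' values shows. All 8 surface, transport and secreted genes typical of resting microglia (*P2ry12*, *P2ry13*, *Tmem119*, *Cx3cr1*, *Gpr34*, *Siglech*, *Olfml3* and *Slc2a5*) were above background on each array. Of all 18194 genes, 13414 were above background on at least 1 array. The measured markers of neurons, astrocytes, oligodendrocytes and vessels all lay above it too. Detection alone therefore does not test the label of the list. Several members are not specific to microglia, since cathepsins B and D are made by most cells and *Ptprc*, *Cd52*, *Cd53* and *Cyba* by leukocytes in general. RNA of whole cortex does not separate the number of microglia from the RNA content of each, so fewer cells of a type and less RNA per cell cannot be told apart.

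**Figure D1:**
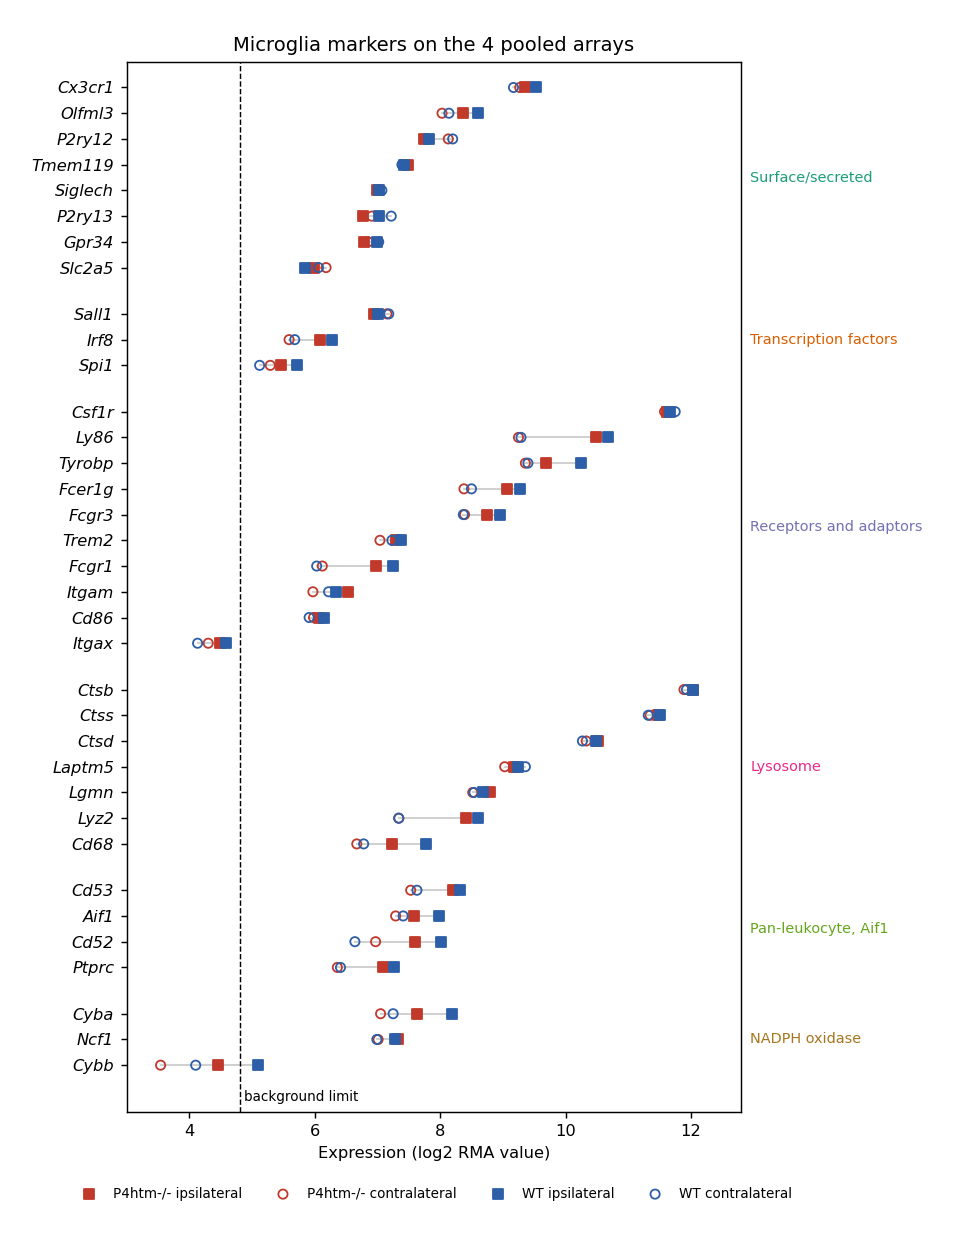
Expression of the 35 microglia markers (log2 RMA value, x axis), with genes as rows grouped by role. Filled squares are ipsilateral and open circles contralateral cortex, red for *P4htm*-/- and blue for WT, each 1 array of pooled RNA, and the dashed line is background at 4.80; *Ly86*, *Lyz2*, *Fcgr1*, *Cd52* and *Ptprc* show squares well to the right of the circles, while *Tmem119*, *Siglech*, *Ctsb* and *Csf1r* show all 4 symbols close together.

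In *P4htm*-/- mice, 7 of 33 members compared were higher in ipsilateral than in contralateral cortex and 0 were lower, where 1.53% of the 13264 genes compared were higher and 0.166% lower. In WT mice, 13 of 34 were higher and 0 lower, against 2.41% higher and 0.444% lower of 13291 genes. The median difference of the members was 0.28 in *P4htm*-/- and 0.33 in WT mice, and that of all detected genes was -0.02 in each genotype. Of the members, 27 lay above 0 and 6 below in *P4htm*-/- mice, and 26 above and 8 below in WT mice. Over all genes compared, 41.7% lay above 0 in *P4htm*-/- and 44.9% in WT mice. The 7 genes higher in both genotypes were *Fcer1g*, *Fcgr1*, *Ly86*, *Lyz2*, *Ptprc*, *Cd52* and *Cd53*. Called in WT but not in *P4htm*-/- mice were *Spi1*, *Irf8*, *Tyrobp*, *Cd68*, *Cyba* and *Cybb*, and 0 members were called in *P4htm*-/- mice only. *Cybb* could be called in WT mice alone because neither *P4htm*-/- array measured it above background, and its call rests on a WT contralateral value below background. With no background filter, its measured differences of 0.91 in *P4htm*-/- and 0.99 in WT mice would both be past 1.5-fold. The ipsilateral arrays held the highest value of most members: 21 of 35 were highest on the WT ipsilateral array, 5 on the *P4htm*-/- ipsilateral array and 1 equally on both. Another 7 were highest on the WT contralateral and 1 on the *P4htm*-/- contralateral array. The same shares over all genes were not counted. The 21 include *Itgax*, above background on no array, and *Cybb*, above it on the WT ipsilateral array only.

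Of the 8 surface, transport and secreted genes of resting microglia, 0 were past 1.5-fold in either genotype, and their median ischemia difference was -0.05 in *P4htm*-/- and -0.04 in WT mice. *P2ry12*, the ADP receptor that guides microglial processes to injury, read 7.74 in *P4htm*-/- ipsilateral and 8.13 in *P4htm*-/- contralateral cortex, against 7.82 in WT ipsilateral and 8.20 in WT contralateral cortex. Both ipsilateral values lay below both contralateral values, and the differences of -0.39 and -0.38 were the lowest among the members in each genotype, with 1.32% of all genes compared lying lower in *P4htm*-/- and 3.04% in WT mice. *P2ry13*, a related ADP receptor whose gene is the direct neighbour of *P2ry12*, read 6.77 in *P4htm*-/- ipsilateral and 6.91 in *P4htm*-/- contralateral cortex, against 7.02 in WT ipsilateral and 7.22 in WT contralateral cortex. It was lower on both *P4htm*-/- arrays than on both WT arrays, by -0.25 ipsilaterally and -0.31 contralaterally.

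*Tmem119*, a membrane protein used to stain microglia, differed little between the arrays, at 7.48 in *P4htm*-/- ipsilateral and 7.44 in *P4htm*-/- contralateral cortex and at 7.42 in WT ipsilateral and 7.39 in WT contralateral cortex. *Siglech*, a lectin that recognises sialic acid, and *Gpr34*, a receptor for lysophosphatidylserine, differed by -0.06 to -0.03 between the sides in each genotype. *Slc2a5*, the fructose transporter GLUT5, differed by -0.20 in *P4htm*-/- and -0.21 in WT mice. The remaining genes of the group, *Olfml3* and *Cx3cr1*, went the other way. *Olfml3*, a secreted olfactomedin protein, read 8.36 in *P4htm*-/- ipsilateral and 8.03 in *P4htm*-/- contralateral cortex, against 8.60 in WT ipsilateral and 8.14 in WT contralateral cortex. *Cx3cr1*, the receptor for the neuronal chemokine *Cx3cl1*, read 9.36 in *P4htm*-/- ipsilateral and 9.27 in *P4htm*-/- contralateral cortex, against 9.53 in WT ipsilateral and 9.17 in WT contralateral cortex. Both genes were higher ipsilaterally in each genotype, by less than 1.5-fold. *Cx3cr1* lies on chromosome 9 with *P4htm*, with 128 protein-coding genes between them.

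Of the 3 transcription factors, 0 were past 1.5-fold in *P4htm*-/- mice and 2, *Spi1* and *Irf8*, narrowly so in WT mice. *Spi1*, which encodes PU.1, read 5.46 in *P4htm*-/- ipsilateral and 5.29 in *P4htm*-/- contralateral cortex, against 5.72 in WT ipsilateral and 5.12 in WT contralateral cortex. Its difference of 0.60 in WT mice was just past 1.5-fold and was 0.58 under cyclic loess, short of it, and that of 0.17 in *P4htm*-/- mice lay within the receptor spread. *Irf8*, a partner of PU.1 in myeloid cells, read 6.08 in *P4htm*-/- ipsilateral and 5.59 in *P4htm*-/- contralateral cortex, against 6.27 in WT ipsilateral and 5.68 in WT contralateral cortex. The differences of 0.49 and 0.59 fell on either side of the 1.5-fold line, and a second probe set gave 0.55 in *P4htm*-/- and 0.33 in WT mice, so the order of the genotypes depended on the probe set. *Sall1*, a factor that keeps microglia in their resting state, differed by -0.21 in *P4htm*-/- and -0.17 in WT mice, but a second probe set, also above background on all 4 arrays, gave 0.05 and 0.24, so its direction was not settled.

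Among the 9 receptors and adaptors above background, 3 were past 1.5-fold in *P4htm*-/- and 4 in WT mice, and their median was 0.35 in *P4htm*-/- and 0.58 in WT mice. The group holds *Ly86*, the member with the largest difference in each genotype. *Ly86*, also named MD-1, which accompanies the Toll-like receptor homologue *Cd180*, read 10.49 in *P4htm*-/- ipsilateral and 9.25 in *P4htm*-/- contralateral cortex, against 10.68 in WT ipsilateral and 9.29 in WT contralateral cortex. This was a 2.36-fold difference in *P4htm*-/- and a 2.62-fold difference in WT mice. *Fcgr1*, the high-affinity receptor for IgG, read 6.97 in *P4htm*-/- ipsilateral and 6.12 in *P4htm*-/- contralateral cortex, against 7.25 in WT ipsilateral and 6.03 in WT contralateral cortex. Its second probe set, also above background on all 4 arrays, gave smaller differences of 0.17 in *P4htm*-/- and 0.41 in WT mice.

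Several of these receptors signal through a partner chain that carries an ITAM motif, and *Fcer1g* and *Tyrobp* encode such chains. *Fcer1g*, which pairs with Fc receptors, read 9.07 in *P4htm*-/- ipsilateral and 8.38 in *P4htm*-/- contralateral cortex, against 9.27 in WT ipsilateral and 8.50 in WT contralateral cortex. *Tyrobp*, also named DAP12, which pairs with *Trem2*, read 9.69 in *P4htm*-/- ipsilateral and 9.36 in *P4htm*-/- contralateral cortex, against 10.25 in WT ipsilateral and 9.40 in WT contralateral cortex. Thus *Fcer1g* was higher ipsilaterally by nearly the same amount in both genotypes, 0.69 and 0.77, whereas *Tyrobp* was at 0.33 in *P4htm*-/- and 0.85 in WT mice. *Trem2*, a lipid receptor of microglia, differed by 0.26 in *P4htm*-/- and 0.15 in WT mice. *Fcgr3*, a low-affinity IgG receptor, differed by 0.35 and 0.58 in the same order of genotypes. Only 7 protein-coding genes separate *Fcgr3* from *Fcer1g* on chromosome 1.

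*Csf1r*, the receptor for the survival factors *Csf1* and *Il34*, read 11.62 in *P4htm*-/- ipsilateral and 11.58 in *P4htm*-/- contralateral cortex, against 11.66 in WT ipsilateral and 11.75 in WT contralateral cortex. The sides differed by 0.04 in *P4htm*-/- and -0.09 in WT mice, and its other probe sets gave 0.00 and 0.02 in *P4htm*-/- and -0.10 and 0.01 in WT mice. *Itgam*, the CD11b chain of complement receptor 3, read 6.53 in *P4htm*-/- ipsilateral and 5.97 in *P4htm*-/- contralateral cortex, against 6.34 in WT ipsilateral and 6.22 in WT contralateral cortex. It was the member with the most positive excess of the *P4htm*-/- over the WT ischemia difference, at 0.44, and its lowest value was on the *P4htm*-/- contralateral array. *Itgax*, the CD11c chain next to it on chromosome 7, was not above background on any array. *Cd86*, a costimulatory ligand of T cells, differed by 0.08 in *P4htm*-/- and 0.24 in WT mice. A second probe set of *Cd86* gave 5.10 on the *P4htm*-/- ipsilateral array and 5.53 on the WT ipsilateral array and was not above background in contralateral cortex of either genotype.

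The lysosomal members had a median of 0.19 in each genotype, with 1 past 1.5-fold in *P4htm*-/- and 2 in WT mice. The proteases *Ctsb*, *Ctsd*, *Ctss* and *Lgmn* differed by 0.10 to 0.28 between the sides in each genotype. Other probe sets of *Ctsb*, all above background, gave 0.01 to 0.45 in *P4htm*-/- and -0.18 to 0.28 in WT mice. *Lyz2*, the lysozyme of myeloid cells, read 8.41 in *P4htm*-/- ipsilateral and 7.34 in *P4htm*-/- contralateral cortex, against 8.60 in WT ipsilateral and 7.34 in WT contralateral cortex. Its contralateral values were equal, and it was 2.10-fold higher ipsilaterally in *P4htm*-/- and 2.39-fold in WT mice. *Cd68*, a glycoprotein of late endosomes in phagocytes, read 7.23 in *P4htm*-/- ipsilateral and 6.67 in *P4htm*-/- contralateral cortex, against 7.78 in WT ipsilateral and 6.78 in WT contralateral cortex. The difference of 0.56 in *P4htm*-/- mice fell just short of 1.5-fold, and in WT mice the sides differed 2-fold. *Laptm5*, a lysosomal membrane protein of blood cells, differed by 0.15 in *P4htm*-/- and -0.11 in WT mice, and 3 further probe sets above background gave -0.02 to 0.15 in *P4htm*-/- and 0.01 to 0.11 in WT mice.

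All 4 genes of the pan-leukocyte group had ischemia differences above 0, with 3 of them past 1.5-fold in each genotype. *Ptprc*, the leukocyte phosphatase CD45, read 7.09 in *P4htm*-/- ipsilateral and 6.36 in *P4htm*-/- contralateral cortex, against 7.27 in WT ipsilateral and 6.41 in WT contralateral cortex. *Cd53*, a tetraspanin of leukocytes, read 8.21 in *P4htm*-/- ipsilateral and 7.53 in *P4htm*-/- contralateral cortex, against 8.32 in WT ipsilateral and 7.63 in WT contralateral cortex. For both genes the 2 genotypes lay close together, within 0.13 in their ischemia differences. *Cd52*, a small glycoprotein anchored to the leukocyte membrane, read 7.60 in *P4htm*-/- ipsilateral and 6.97 in *P4htm*-/- contralateral cortex, against 8.02 in WT ipsilateral and 6.64 in WT contralateral cortex. The WT values therefore lay outside the *P4htm*-/- values at both ends. *Aif1*, which encodes the microglial stain Iba-1, a calcium-binding protein of actin ruffles, read 7.58 in *P4htm*-/- ipsilateral and 7.29 in *P4htm*-/- contralateral cortex, against 7.98 in WT ipsilateral and 7.41 in WT contralateral cortex. It was below 1.5-fold in both genotypes, at 0.29 and 0.57, but median centring and cyclic loess each put the WT difference past 1.5-fold.

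Subunits of the phagocyte NADPH oxidase, the enzyme that makes superoxide, differed among themselves. *Cyba*, the small membrane subunit p22phox, read 7.63 in *P4htm*-/- ipsilateral and 7.05 in *P4htm*-/- contralateral cortex, against 8.19 in WT ipsilateral and 7.25 in WT contralateral cortex. *Cybb*, the catalytic subunit, read 5.09 in WT ipsilateral cortex and was not above background on the other 3 arrays. It was higher in WT ipsilateral than in WT contralateral cortex by at least 0.29, and 2 other probe sets were not above background on any array. *Ncf1*, the cytosolic organizer p47phox, read 7.32 in *P4htm*-/- ipsilateral and 7.01 in *P4htm*-/- contralateral cortex, against 7.28 in WT ipsilateral and 6.99 in WT contralateral cortex, so that the genotypes lay within 0.04 on each side. A second probe set of *Ncf1* gave a difference of 0.24 between *P4htm*-/- and WT ipsilateral cortex and ischemia differences of 0.49 in *P4htm*-/- and 0.19 in WT mice.

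**Figure D2:**
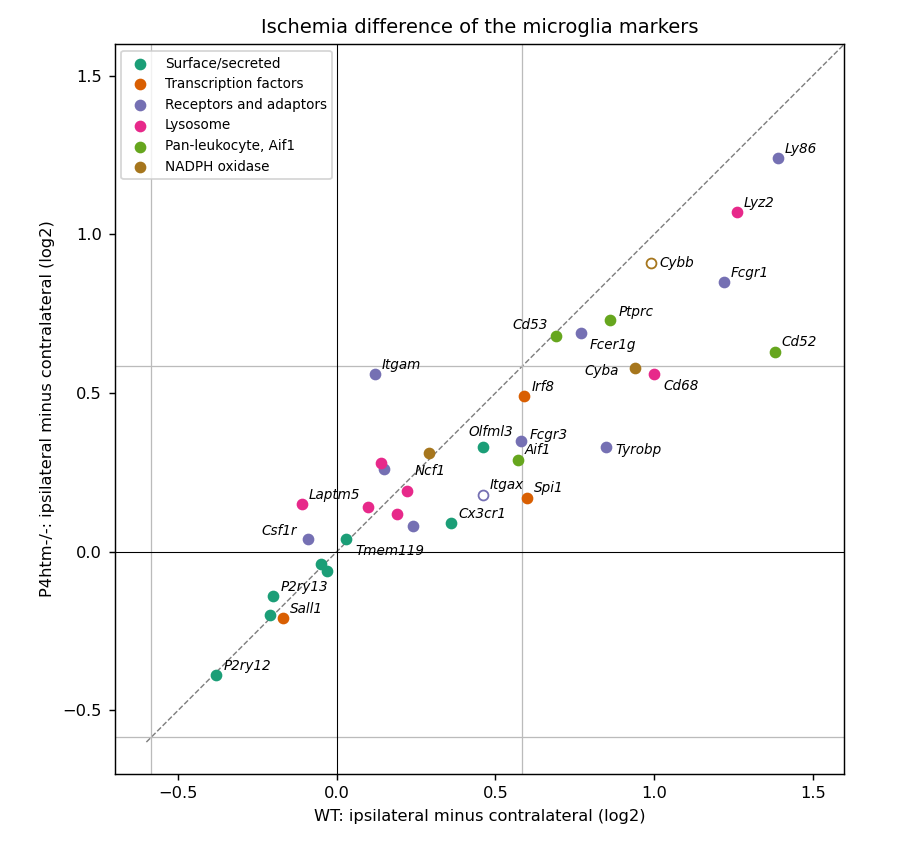
Ischemia difference of each marker in *P4htm*-/- mice (ipsilateral minus contralateral, log2, y axis) against that in WT mice (x axis), coloured by role; the dashed diagonal is equality, the grey lines are 1.5-fold, and open symbols are *Cybb* and *Itgax*, which were not above background on most or all arrays. Members with differences near 0 lie along the diagonal, while *Cd52*, *Tyrobp*, *Cd68* and *Fcgr1* lie below it and *Itgam* above it.

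Across members the ischemia differences of both genotypes, which share no array, ran in parallel, with Pearson's r of 0.89 and Spearman's rho of 0.89 over 33 genes, against 0.60 and 0.27 over 13141 genes. These are correlations across genes of the same 4 arrays, and genes are not independent replicates. The difference was smaller in *P4htm*-/- than in WT mice for 22 of these 33 members and larger for 11, where 47.9% of all genes were smaller. When members were taken by the mean of both differences, 10 were past 1.5-fold, with a median of 0.69 in *P4htm*-/- and 0.97 in WT mice. All 10 were smaller in *P4htm*-/- mice, as were 68.0% of the 206 genes of the array that passed the same rule. Over all detected genes the ischemia difference had an SD of 0.28 in WT and 0.22 in *P4htm*-/- mice. This choice therefore favours genes with a large WT difference, and *Tyrobp*, *Cd68* and *Cyba* were past 1.5-fold in WT mice alone. The difference between the ischemia differences was past 1.5-fold higher for 0 and lower for 1 of 34 members, against 0.529% and 1.36% of 13414 genes, and had a median of -0.08. The 1 member was *Cd52*, at -0.75. Next came *Tyrobp* at -0.52, *Cd68* at -0.44 and *Spi1* at -0.43.

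In contralateral cortex 0 of 33 members were past 1.5-fold higher and 0 lower in *P4htm*-/- than in WT mice, where 0.228% of the 13175 genes compared were higher and 0.159% lower. The median was -0.04, with 11 members above 0, 21 below and 1 equal. Over all genes compared the median was -0.01, with 43.1% above 0 and 53.1% below. The differences reached from -0.33 for *Laptm5* to 0.33 for *Cd52*, and *P2ry13* at -0.31 and *Itgam* at -0.25 were the next lowest.

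In ipsilateral cortex the values of most members were slightly lower in *P4htm*-/- mice, compared with WT. Of 34 members, 27 lay below 0, 6 above and 1 at 0, where 50.9% of the genes compared lay below 0 and 46.9% above. The median of the members was -0.18, and that of all detected genes was -0.01. Past 1.5-fold, 0 were higher and 1 was lower, against 0.09% higher and 0.578% lower of the 13328 genes compared. The 1 member was *Cybb*, called on its measured difference of -0.64. As its *P4htm*-/- ipsilateral value was not above background, the difference is known only to be -0.29 or lower. *Tyrobp* and *Cyba*, both at -0.56, *Cd68* at -0.55, *Cd52* at -0.42 and *Aif1* at -0.40 followed, each short of 1.5-fold and each beyond the receptor SD of 0.20. Of all genes compared, 0.71% lay lower than *Tyrobp* and *Cyba*, 0.80% lower than *Cd68*, 3.05% lower than *Cd52* and 3.54% lower than *Aif1*. Fc receptors and their chain were less far apart, with *Fcgr1* at -0.28, *Fcgr3* at -0.21 and *Fcer1g* at -0.20. The 6 members above 0 were *Itgam* at 0.19, *Slc2a5*, *Lgmn*, *Tmem119*, *Ncf1* and *Ctsd* at 0.03. Other probe sets of the members above background on both compared arrays were set beside the one used, and a difference of 0 was not counted as the same sign. The sign was the same in 6 of 14 cases in this comparison and in 9 of 13 in contralateral cortex. For ischemia it was the same in 10 of 13 cases in *P4htm*-/- and in 6 of 13 in WT mice. Opposite signs in ipsilateral cortex came only from probe sets of *Fcgr1*, *Irf8* and *Laptm5*, while the probe set used for *Ctsb* was at 0.00. Differences between probe sets of a gene had an SD of 0.15 to 0.31 in these comparisons and reached 0.81 for ischemia in WT mice, so genotype and ischemia differences of such sizes depended on the probe set. The genotype and the ischemia comparisons share arrays and are not independent of each other.

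**Figure D3:**
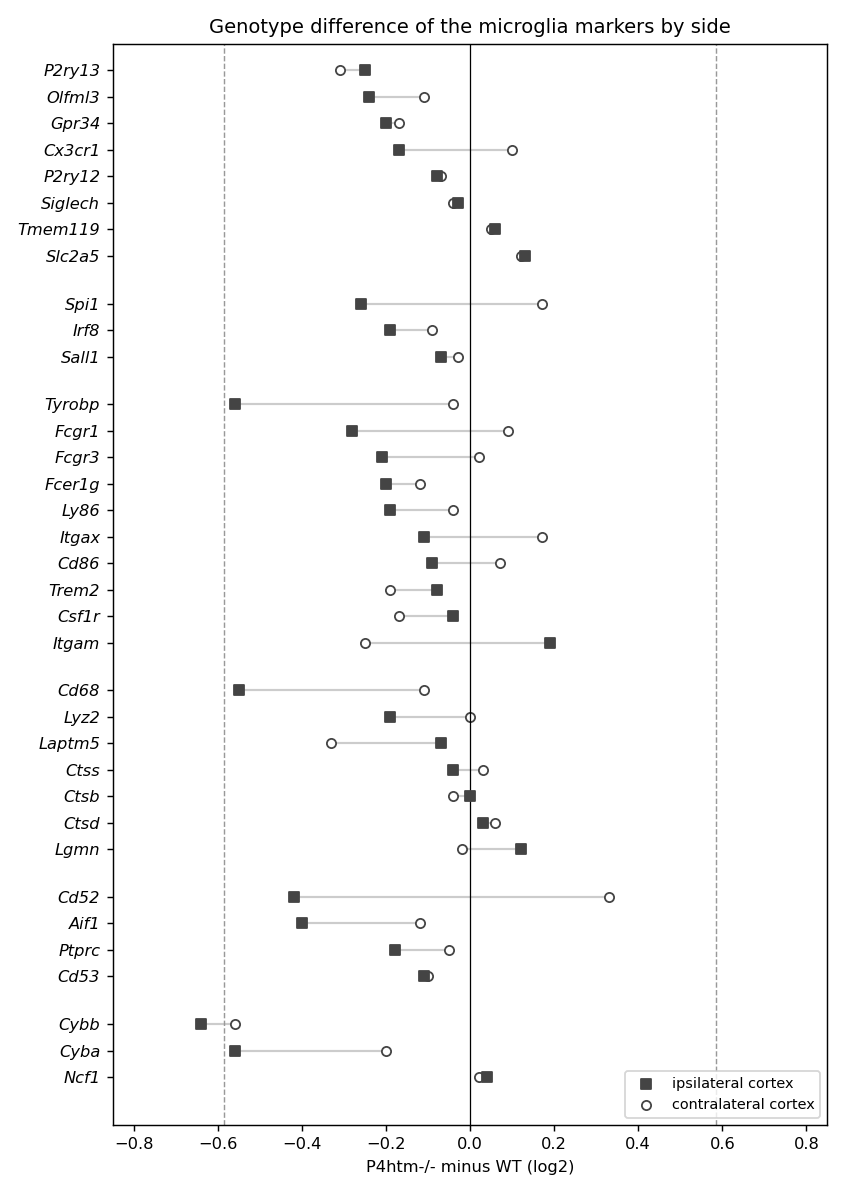
Difference of each marker between *P4htm*-/- and WT mice (log2, x axis), with filled squares for ipsilateral and open circles for contralateral cortex, genes as rows grouped by role, and dashed lines at 1.5-fold; *Itgax* and, apart from its WT ipsilateral value, *Cybb* were not above background. Squares of *Tyrobp*, *Cd68*, *Cd52*, *Aif1* and *Cyba* lie between -0.40 and -0.56, while their circles lie between -0.20 and 0.33.

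Genes of the same pathways that are not members were examined from lists chosen on general knowledge. Of 16 further microglia genes compared, 1 was past 1.5-fold higher ipsilaterally in *P4htm*-/- and 2 in WT mice, with medians of -0.01 and 0.01. *Fcrls*, an Fc receptor-like gene of mouse microglia, was at 0.77 in *P4htm*-/- and 0.74 in WT mice, and *P2ry6*, a UDP receptor that drives phagocytosis, at 0.51 and 1.13. The ligands and receptors that maintain microglia had 0 of 8 past 1.5-fold in either genotype, with the ligand *Csf1* at 0.32 in *P4htm*-/- and 0.17 in WT mice and the neuronal ligand *Cx3cl1* at -0.09 and -0.37. Of 13 genes that act downstream of *Tyrobp* and *Fcer1g*, 1 was past 1.5-fold in *P4htm*-/- and 2 in WT mice, with medians of 0.20 and 0.30. *Clec7a*, the beta-glucan receptor dectin-1, was at 0.98 in *P4htm*-/- and 1.33 in WT mice, and the adaptor *Lcp2* at 0.55 and 0.67. Among 9 other cathepsins, *Ctsc*, which activates serine proteases of leukocytes, stood at 1.37 in *P4htm*-/- and 1.28 in WT mice, and *Ctsz* at 0.63 and 0.39. Of 3 further oxidase genes compared, 1 was past 1.5-fold in each genotype, the cytosolic subunit *Ncf4*, higher by at least 0.63 in *P4htm*-/- and 0.96 in WT mice. Of 13 genes linked to activated microglia, 5 were past 1.5-fold in each genotype, among them the galectin *Lgals3* at 2.85 or more in *P4htm*-/- and 3.02 in WT mice and the chemokine *Ccl6* at 0.83 and 1.57. The galectin *Lgals1* was at 0.63 and 1.06, the tetraspanin *Cd9* at 0.50 and 0.89 and the lipase *Lpl* at 0.63 and 0.31 in the same order of genotypes.

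Markers of other cells moved in the same comparisons, and their part in the members' differences was not tested. Of 10 monocyte and macrophage markers compared, 1 was past 1.5-fold higher ipsilaterally in *P4htm*-/- and 3 in WT mice, and their mean level was 6.48 on the *P4htm*-/- ipsilateral and 6.14 on the *P4htm*-/- contralateral array, against 6.48 on the WT ipsilateral and 6.09 on the WT contralateral array. *Ms4a6c* was at 1.11 in *P4htm*-/- and 0.41 in WT mice, *F13a1* at 0.52 and 0.63, *Pf4* at 0.27 and 0.69 and *Lyve1* at 0.23 and 0.71. The defining monocyte genes *Ccr2*, *Chil3* and *Plac8* were not above background on any array. Of 12 neutrophil markers, 7 were above background on the *P4htm*-/- ipsilateral array, 5 on the *P4htm*-/- contralateral, 6 on the WT ipsilateral and 4 on the WT contralateral array. With values below background set to it, the mean of the 7 was 6.17, 5.26, 6.07 and 5.14 in that order. Past 1.5-fold higher ipsilaterally were 3 of 7 compared in *P4htm*-/- and 3 of 6 in WT mice, namely *S100a8*, *S100a9* and *Lcn2*. The neutrophil alarmin *S100a8* read 7.62 in *P4htm*-/- ipsilateral and 5.28 in *P4htm*-/- contralateral cortex, against 7.20 in WT ipsilateral cortex, and was not above background in WT contralateral cortex. *S100a9*, its partner, was higher ipsilaterally by 1.57 in *P4htm*-/- and by at least 1.94 in WT mice, and it was higher in *P4htm*-/- than in WT contralateral cortex by at least 0.59. *Lcn2*, an iron-scavenging lipocalin, was higher ipsilaterally by at least 1.92 in *P4htm*-/- and by 1.65 in WT mice, and in contralateral cortex it differed between *P4htm*-/- and WT mice by -0.09 or lower. *Mpo*, *Elane*, *Camp*, *Cxcr2* and *Mmp8* were not above background on any array. Only 3 of 8 lymphocyte markers were above background on each array, with mean levels of 5.52 to 5.89.

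In ipsilateral cortex, where most members were lower in *P4htm*-/- mice, 11 of 12 neuron markers were higher and 1 equal, with a median of 0.15 and mean levels of 11.99 on the *P4htm*-/- and 11.85 on the WT array. All 10 oligodendrocyte markers were lower in *P4htm*-/- mice on this side, with a median of -0.16, and also on the contralateral side, with a median of -0.12. Astrocyte markers had a median of -0.05 and vessel markers one of -0.12 in ipsilateral cortex. Neutrophil markers had a median of 0.18 there, with 4 above 0 and 3 below. Monocyte and macrophage markers had one of -0.04, with 4 above and 6 below. Genes linked to activated microglia had one of -0.14, with 3 above and 10 below. With values below background set to it, 7 choroid plexus markers had a mean level of 6.60 on the *P4htm*-/- ipsilateral and 5.73 on the *P4htm*-/- contralateral array, against 6.93 on the WT ipsilateral and 5.68 on the WT contralateral array. Its gene *Ttr*, transthyretin, was higher ipsilaterally by 4.59 in *P4htm*-/- and 5.35 in WT mice, and its part in the members' values was not tested.

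**Figure D4:**
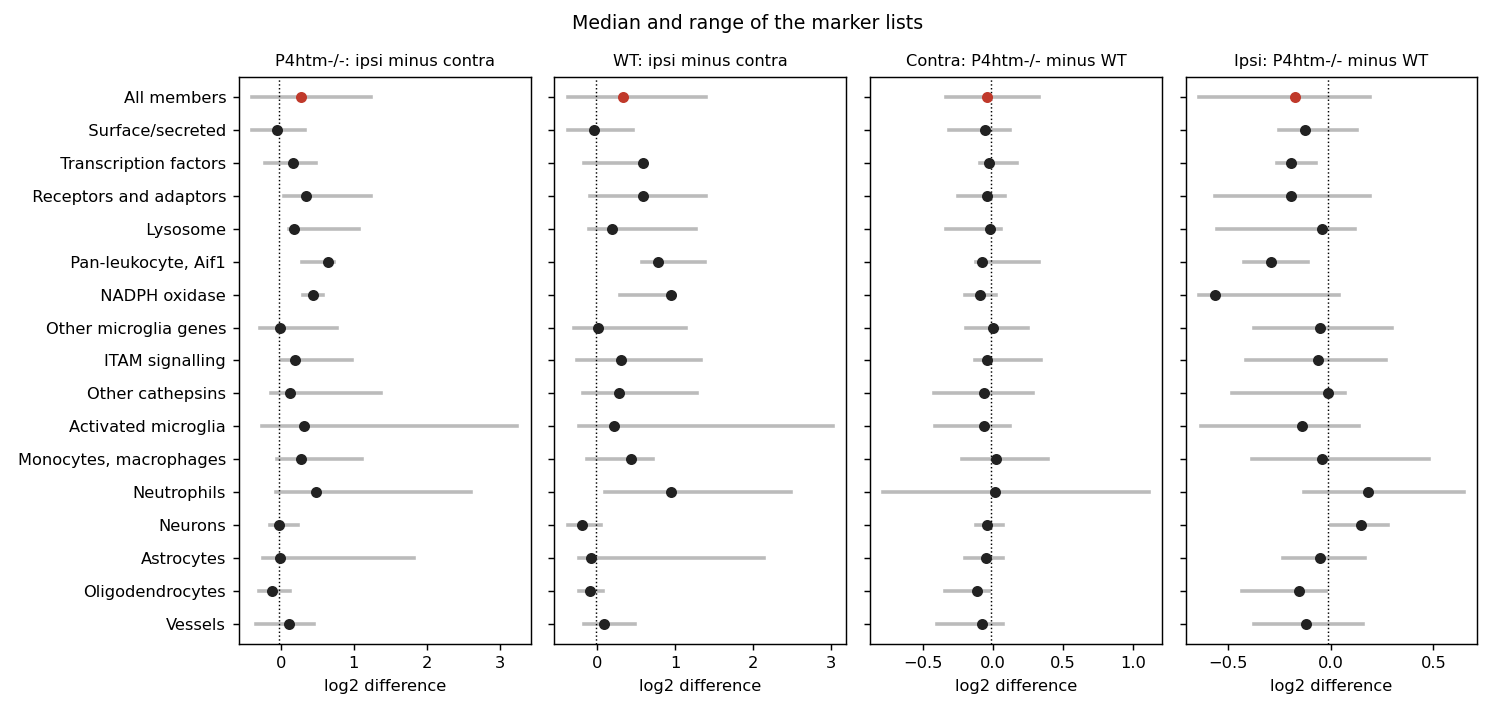
Median (dot) and range (bar) of the log2 difference in lists of genes, with the microglia markers and their role groups at the top and lists of other genes and cell types below, in 4 comparisons of 1 array with 1 array; the dotted line is the median of all detected genes and each list holds only genes above background on a compared array. The pan-leukocyte and NADPH oxidase groups lie farthest to the right of 0 among the role groups in both ischemia panels, and in the ipsilateral genotype panel the neuron markers lie to the right of the line and most microglia groups to the left.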

How the data were processed

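Gene expression was measured on both sides of the cortex 24 h after permanent MCAO in 2 genotypes. The deposited values are on a log2 scale per probe set, which the authors made with RMA according to the submitters' processing notes. RMA corrects background and brings arrays to a common distribution, so that a shift shared by all genes would be removed. The methods give GenePattern as the software for normalization. Its version, like the log base, is not given in the sources used here, and a base of 2 was assumed because values spanned 2.51 to 14.90.

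Of 45101 probe sets, 34958 name 1 gene, 932 name several and were left out, and 9211 are unnamed here. Symbols of 34754 were looked up by Entrez ID in a RefSeq table of assembly GRCm38.p6, used for names and gene order only. Taking the probe set of highest mean per gene left 18194 genes, 13414 of them above background on at least 1 array. All 35 members were found, and 0 value columns were unused. Promoter sequences are from RefSeq, GRCm38.p6, and 27 members had an entry.

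Every member is named by its values or within the range of its role group. Genes of the other lists given with values, apart from *Csf1*, were drawn from the 4 highest means of a list and those past 1.5-fold. Not all of these are named. The members, lists and comparisons were chosen with earlier results of these data known. Calls and medians used the values as deposited. Bounds for named genes, and mean levels of lists of other cells, used background in place of any value below it. Alternatives were other choices of probe set, no background filter, background at the 99th percentile, a 2-fold rule, median centring, cyclic loess, and members above background on all 4 arrays. The counting step was tested on simulated data. The tools were limma 3.58.1 under R 4.3.3 for cyclic loess, and numpy 2.4.6, matplotlib 3.10.9, scipy 1.17.1 and pandas 2.3.3 under Python 3.11.15 for the rest.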

Additional observations from a re-analysis of the deposited data

Results flagged for a closer look

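Some members differed in opposite directions in the 2 genotypes or on the 2 sides. Each of these rests on 1 array per condition, and none of the differences was tested. The shares of all genes with such opposite directions were not counted, so the counts of members below cannot be set against them. The ischemia difference was above 0 in *P4htm*-/- and below 0 in WT mice for 2 members, and the gap between the genotypes was 0.13 for *Csf1r* and 0.26 for *Laptm5*. Both gaps lay within the receptor SD of 0.29 for this comparison. The opposite signs also depended on the probe set. Other probe sets of *Laptm5* above background gave -0.02 to 0.15 in *P4htm*-/- and 0.01 to 0.11 in WT mice. Those of *Csf1r* gave 0.02 in *P4htm*-/- and 0.01 in WT mice, and 0.00 and -0.10.

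The difference between *P4htm*-/- and WT mice had opposite signs in ipsilateral and contralateral cortex for 9 members. Ipsilateral minus contralateral, it was -0.75 for *Cd52*, -0.43 for *Spi1*, -0.37 for *Fcgr1*, -0.27 for *Cx3cr1*, -0.23 for *Fcgr3*, -0.16 for *Cd86* and -0.07 for *Ctss*, where the *P4htm*-/- value was below WT in ipsilateral and above it in contralateral cortex. For *Itgam* at 0.44 and *Lgmn* at 0.14 the order was the other way. The gaps of *Cd52*, *Itgam*, *Spi1* and *Fcgr1* exceeded the receptor SD of 0.29, and the others did not. A second probe set of *Fcgr1*, above background on all 4 arrays, gave 0.27 in contralateral and 0.03 in ipsilateral cortex. Its sign was thus the same on both sides, and its gap of -0.24 lay within that SD.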

How the results depend on the processing

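No paired analysis was possible because each condition has 1 array. Over all alternatives the median of the members ran from 0.28 to 0.31 for ischemia in *P4htm*-/- mice, from 0.26 to 0.37 for ischemia in WT mice, from -0.04 to -0.02 for genotype in contralateral cortex, from -0.18 to -0.09 for genotype in ipsilateral cortex and from -0.08 to -0.06 for the difference between the ischemia differences. With a 2-fold rule, 2 members in *P4htm*-/- and 5 in WT mice were higher ipsilaterally, and 0 members were lower in *P4htm*-/- ipsilateral cortex or in the difference between the ischemia differences. With the mean of all probe sets of a gene, 4 members were higher ipsilaterally in *P4htm*-/- mice, where *Cd53*, *Fcgr1* and *Ptprc* were no longer past 1.5-fold, 9 were higher in WT mice, where *Cd53*, *Cybb*, *Irf8* and *Ptprc* were not, and 0 were lower in *P4htm*-/- than in WT ipsilateral cortex. That last count was 0 too with background at the 99th percentile and with members above background on all 4 arrays, since *Cybb* then dropped out, as did *Spi1* and *Irf8* for ischemia in WT mice at the 99th percentile. With specific probe sets only, *Ptprc* was lost in both genotypes and *Cyba* in WT mice, which left 6 and 11 members. Median centring gave 10 and cyclic loess 9 members higher in *P4htm*-/- mice, which added *Cd68* and *Cyba* under both and *Itgam* under centring. In WT mice they gave 15 and 14, which added *Aif1* and *Fcgr3* under both, while *Spi1* was lost under loess. Among calls past 1.5-fold, the other settings and probe sets run turned the direction only in probe sets not above background on any array, 1 of *Cd53*, at -0.40 for ischemia in *P4htm*-/- and -0.10 in WT mice, and 1 of *Cybb*, at 0.16 for genotype in ipsilateral cortex. Among differences short of 1.5-fold, probe sets above background on all 4 arrays turned the direction for *Csf1r*, *Ctsb*, *Fcgr1*, *Irf8*, *Laptm5*, *Ncf1* or *Sall1* in at least 1 of the 4 comparisons. A further 18 values of single members moved by more than the receptor SD and 77 did not. Without replicate arrays, variation between mice cannot be set against any value, and signal close to background limits *Cybb*, *Itgax* and *Spi1*, the members with the lowest values, and the calls of *Spi1* and *Irf8*.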
